A study of Mus musculus with 8 samples.

Results

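The Dlk1-Dio3 cluster is a group of imprinted genes on mouse chromosome 12, and 6 of its genes were followed here across 4 kinds of pluripotent stem cells. These were the non-coding RNA genes Meg3, Rian and Mirg and the protein-coding genes Dlk1, Rtl1 and Dio3, out of 23019 gene symbols in the tables. The 6 genes were selected on their expression across the same 4 groups, so their own levels and differences are given as a description, without a test. Expression is in FPKM, fragments scaled to transcript length and to the mapped fragments of the library. In CDGC1 cells all 6 genes were at or near 0. In CDGC6 cells the 3 non-coding RNAs were at 1.89 to 4.54 times the control level. Of the coding genes, Dlk1 was at 0.971, Dio3 at 0.661 and Rtl1 at 1.76 times, with Rtl1 below 1 FPKM in every library. In Dnd1-KD cells the largest ratio to control was that of Dio3, at 2.85 times.

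In an imprinted cluster each gene is expressed mainly from the copy inherited from either the mother or the father. In the mouse, Meg3, Rian and Mirg are known to be read from the maternal copy as long non-coding RNAs that also carry many microRNAs and small nucleolar RNAs, and Dlk1, Rtl1 and Dio3 from the paternal copy. DNA methylation of a control region between Dlk1 and Meg3 marks the paternal copy, and Meg3 is known to be silent in some mouse stem cell lines. The deposited tables carry neither the parental origin of a fragment nor DNA methylation.

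CDGC1 and CDGC6 are pluripotent lines, each with genotype Dnd1ter/ter on strain 129Sv with the Oct4deltaPE-GFP reporter, established from teratoma cells in the testis of newborn mice and used at passages 15 to 18. Dnd1-KD cells are wild-type embryonic stem cells of strain 129/Ola in which Dnd1 was knocked down, at passages 10 to 12. The control was the wild-type 129/Ola embryonic stem cell line E14tg2a, at the same passages. Each group had 2 libraries, all cells grew with serum and the cytokine LIF, and libraries came from the TruSeq RNA v2 kit, which selects polyadenylated RNA and does not mark strand. Each derived line is 1 line, and CDGC1 and CDGC6 differ from the control in derivation, strain, Dnd1 genotype and passage at the same time, so the parts of these cannot be told apart.

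The genes lie between 109452823, the start of Dlk1, and 110281097, the end of Dio3, on chromosome 12 of mm10, a stretch of 828 kb (GENCODE vM21). Meg3 (109541001 to 109571726), Rian (109603940 to 109661716), Mirg (109729764 to 109749460), Dlk1 and Dio3 are on the plus strand, and Rtl1 (109589193 to 109600330) is on the minus strand. The levels of all 6 genes stood near 0 in CDGC1, and the start regions of Meg3, Dlk1 and Dio3 are shown as examples. They hold the 250 bases before and 50 bases after a gene start, from RefSeq on GRCm38.p6, at chr12:109540746-109541045 for Meg3, chr12:109452573-109452872 for Dlk1 and chr12:110278980-110279279 for Dio3, all on the plus strand. Capitals mark CG pairs, the sites at which DNA is methylated.
Meg3: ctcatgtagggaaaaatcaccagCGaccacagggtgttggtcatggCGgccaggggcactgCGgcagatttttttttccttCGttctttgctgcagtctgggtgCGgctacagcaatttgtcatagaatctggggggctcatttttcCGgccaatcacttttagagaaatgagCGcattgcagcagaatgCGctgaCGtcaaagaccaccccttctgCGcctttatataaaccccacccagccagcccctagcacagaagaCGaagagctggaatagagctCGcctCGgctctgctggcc
Dlk1: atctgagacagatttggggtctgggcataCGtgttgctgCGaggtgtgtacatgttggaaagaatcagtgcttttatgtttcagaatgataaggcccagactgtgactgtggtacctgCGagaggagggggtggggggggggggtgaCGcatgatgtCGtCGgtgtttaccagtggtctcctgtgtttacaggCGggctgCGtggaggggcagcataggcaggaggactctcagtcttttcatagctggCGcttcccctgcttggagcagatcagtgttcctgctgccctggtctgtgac
Dio3: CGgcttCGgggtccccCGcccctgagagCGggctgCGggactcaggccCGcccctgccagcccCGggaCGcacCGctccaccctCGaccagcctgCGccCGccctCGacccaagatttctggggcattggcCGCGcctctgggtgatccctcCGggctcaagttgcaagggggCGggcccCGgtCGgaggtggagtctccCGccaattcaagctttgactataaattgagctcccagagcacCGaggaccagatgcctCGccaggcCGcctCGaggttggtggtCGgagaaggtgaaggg
The Dio3 window holds 25 CG pairs, the Meg3 window 13 and the Dlk1 window 9, against a median of 7 over 32851 RefSeq promoters of this length. The Rian window holds 0 CG pairs and the Mirg window 10. The Mirg window, at chr12:109734731-109735030, lies inside the gene as placed above and not at its GENCODE start. A further RefSeq start of Meg3, downstream, holds 1 in its window. As many CG pairs as at Dio3 or more were in 18.4% of all promoters, and as many as at Meg3 or more in 37.9%. The letters TGCCGC, the core bound by the imprint-keeping protein ZFP57 when methylated, were searched on both strands. They occur 1 time in the Meg3 window and 0 times in those of Dlk1, Dio3, Rian and Mirg, and 11.6% of all promoters hold them. Each such match contains 1 of the CG pairs counted above. RefSeq entries were matched for 5 of the 6 genes.

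The cluster also holds 58 microRNA hairpins in RefSeq, 54 of them on the plus strand, which give 114 mature microRNAs with 104 different seeds. The seed, bases 2 to 8, is the stretch by which a microRNA recognises its targets, and only 20 of the 114 share a seed with another microRNA of the cluster. Inside Rtl1 lie 7 hairpins, and 11 mature arms are complementary over their whole length to the Rtl1 transcript. MicroRNAs from this place are known to cut the Rtl1 messenger RNA in the mouse. The following 5, between chr12:109590459 and 109595352 on the plus strand, show why a fragment there can belong to Rtl1 or to the RNA on the opposite strand. Capitals mark the seed.
miR-127-3p: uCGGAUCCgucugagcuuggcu
miR-136-5p: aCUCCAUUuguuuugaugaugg
miR-431-5p: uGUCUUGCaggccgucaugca
miR-433-3p: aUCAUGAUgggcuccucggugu
miR-434-3p: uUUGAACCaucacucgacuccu
None of these 5 shares its seed with another mature microRNA of the cluster. Mature microRNAs are too short for these libraries and were not measured.

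The tables implied 10.7 M to 18.0 M fragments per library. No label says whether the pair of libraries in a group are separate cultures, and p-values measure only the spread within these pairs. The targeted gene Dnd1 had no value of its own. Its entry was joined with its neighbour Hars, with 81.4 and 71.5 FPKM in CDGC1, 60.1 and 63.4 in CDGC6, 57.6 and 53.9 in Dnd1-KD and 65.8 and 65.0 in control, which does not check the knockdown. Of 10 pluripotent cell markers, all were above 1 FPKM in every library of CDGC6, Dnd1-KD and control, while Zfp42 and Esrrb were below 1 FPKM in both CDGC1 libraries. The entries of Meg3, Mirg and Rtl1 were joined with microRNA genes in every library, and that of Rian with the small RNA gene AF357359 outside CDGC1. Their FPKM cover the joined genes too, and many of the deposited intervals reach 0. Mir370 was joined with Rian in CDGC6 alone, and the microRNA genes joined with Mirg differed between libraries. Dlk1 and Dio3 have entries of their own.

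Meg3, the maternal RNA gene nearest to Dlk1, was at 0.122 and 1.29 FPKM in CDGC1, at 218 and 208 in CDGC6, at 68.8 and 92.9 in Dnd1-KD and at 101 and 96.7 in control. The CDGC1 libraries were the lowest of all 8 and the CDGC6 libraries the highest, with no overlap. The Dnd1-KD libraries were below the control libraries, but they differed from each other by more than the group means did. The mean in CDGC1 was 0.717% of the control mean, a log2 difference of FPKM + 1 of -5.96, and that in CDGC6 was 2.16 times the control mean, a difference of 1.10. Of the CDGC1 libraries the second was the higher, and their deposited intervals were 0 to 1.27 and 0.283 to 2.31 FPKM. Meg3 in Dnd1-KD was at 0.818 times the control mean.

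Rian, which lies after Meg3 and hosts many small nucleolar RNAs, was at 0.750 and 1.49 FPKM in CDGC1, at 363 and 389 in CDGC6, at 95.7 and 86.9 in Dnd1-KD and at 88.4 and 77.4 in control. CDGC1 was again below and CDGC6 above all other libraries, and the Dnd1-KD and control libraries overlapped. In CDGC1 the entry was Rian alone, with intervals of 0.570 to 0.929 and 1.16 to 1.83 FPKM, so both values were above 0 by the tables' own error. Its mean in CDGC6 was 4.54 times the control mean, the largest such ratio of the 6 genes in that line. The entries behind this ratio were not alike, since Mir370 was joined in CDGC6 alone. The interval in the first CDGC6 library, where Mir370 was joined too, was 0 to 764 FPKM, and that in the second, joined in the same way, was 376 to 402.

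Mirg, the last of the maternal RNAs and a host of microRNAs, was at 0.0321 and 0.103 FPKM in CDGC1, at 51.6 and 41.2 in CDGC6, at 14.1 and 17.4 in Dnd1-KD and at 25.2 and 23.8 in control. The order of the groups was that of Meg3, and no groups overlapped. The mean in CDGC1 was 0.277% of control, that in CDGC6 1.89 times and that in Dnd1-KD 0.643 times. Intervals reached 0 in every library except the second of Dnd1-KD, where they ran from 14.8 to 19.9 FPKM. Between the derived lines, the log2 difference of CDGC1 against CDGC6 was -7.06 for Meg3, -7.50 for Rian and -5.46 for Mirg.

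**Figure D1:**
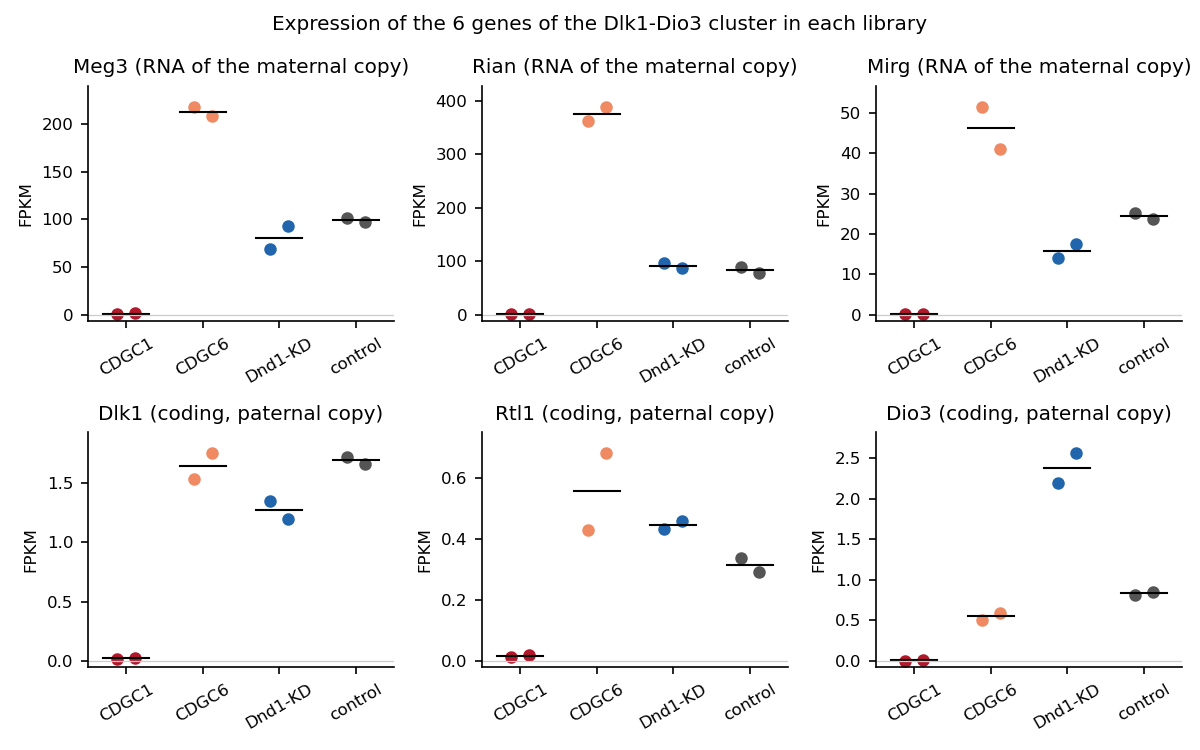
Expression in FPKM (vertical axis, linear, a scale for each gene) of the 6 cluster genes in CDGC1, CDGC6, Dnd1-KD and control. Points are the 2 libraries of a group and the line is their mean; CDGC1 sits at the bottom of every panel, CDGC6 at the top for Meg3, Rian and Mirg, and Dnd1-KD at the top for Dio3.

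Dlk1 encodes a membrane protein related to the NOTCH ligands. It was at 0.0183 and 0.0274 FPKM in CDGC1, at 1.53 and 1.75 in CDGC6, at 1.35 and 1.20 in Dnd1-KD and at 1.72 and 1.66 in control. The CDGC6 libraries lay on either side of the control libraries, the Dnd1-KD libraries were below them, and the CDGC1 libraries were far below all others. The CDGC1 values rested on an implied 0.475 and 1.27 fragments, against 191 and 226 in CDGC6, 277 and 113 in Dnd1-KD and 378 and 198 in control. The mean was 1.35% of control in CDGC1, 0.971 times in CDGC6 and 0.754 times in Dnd1-KD. Because levels were low, the log2 difference of FPKM + 1 understates the change and was -1.39 in CDGC1.

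Rtl1, a gene derived from a retrotransposon and known for its role in the placenta, was at 0.0140 and 0.0206 FPKM in CDGC1, at 0.430 and 0.680 in CDGC6, at 0.433 and 0.459 in Dnd1-KD and at 0.337 and 0.293 in control. The CDGC6 and Dnd1-KD libraries were above the control libraries and overlapped each other. Rtl1 reached 1 FPKM in 0 of 8 libraries and so was below the filter used for the tests. Its entry also held Mir3071, and its interval started above 0 in 1 library only, the first of Dnd1-KD.

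Dio3 encodes the deiodinase that inactivates thyroid hormone and lies at the far end of the cluster. It was at 0 and 0.0170 FPKM in CDGC1, at 0.506 and 0.593 in CDGC6, at 2.19 and 2.56 in Dnd1-KD and at 0.817 and 0.848 in control. No groups overlapped, and Dnd1-KD was highest. The mean in Dnd1-KD was 2.85 times the control mean, a log2 difference of 0.88, and that in CDGC6 was 0.661 times. The values rested on an implied 0 and 1 fragments in CDGC1, 28.0 and 33.4 in CDGC6, 209 and 110 in Dnd1-KD and 84.9 and 45.8 in control. Dio3 passed the filter of 1 FPKM in 2 libraries through Dnd1-KD alone.

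Of the 6 cluster genes, 5 passed the filter and Rtl1 did not, and all 6 had both CDGC1 libraries below the other 6 libraries. The share of all 11875 tested units with that pattern was 24.6%, and Rtl1 is not among those units. Meg3, Rian and Mirg had both CDGC6 libraries above the other 6 libraries, against 11.9% of all tested units. A unit is a gene symbol, or a group of symbols that a table joined. In these mixtures of cells, fewer cells with a given RNA and less of it per cell cannot be told apart.

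The balance between the maternal RNAs and the coding genes also differed, as a description of the same values. Summed, Meg3, Rian and Mirg had 0.903 and 2.89 FPKM in CDGC1, 633 and 639 in CDGC6, 179 and 197 in Dnd1-KD and 214 and 198 in control. Dlk1, Rtl1 and Dio3 summed to 0.0322 and 0.0650 FPKM in CDGC1, 2.47 and 3.02 in CDGC6, 3.97 and 4.22 in Dnd1-KD and 2.87 and 2.80 in control. The maternal sum was thus 256 and 211 times the coding sum in CDGC6, 45.0 and 46.7 times in Dnd1-KD and 74.6 and 70.8 times in control. In CDGC1 it was 28.0 and 44.4 times, ratios of sums near 0. CDGC6 thus had the highest ratio and Dnd1-KD a ratio below control. The coding genes did not move together in Dnd1-KD. Mean Dio3 was 2.38 FPKM against 0.832 in control and mean Rtl1 0.446 against 0.315, while mean Dlk1 was 1.27 against 1.69. Fragments of Rtl1 also cannot be told apart from those of the RNA on the opposite strand.

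Within the maternal RNAs, Rian was at 1.67 and 1.87 times the FPKM of Meg3 in CDGC6, at 1.39 and 0.936 times in Dnd1-KD and at 0.877 and 0.801 times in control. FPKM are per length of transcript, so these ratios compare levels per length. The CDGC6 libraries had more Rian than Meg3 and the control libraries more Meg3 than Rian. These ratios compare unlike entries, since the Rian entry held Mir370 in CDGC6 alone, and the part of Mir370 was not tested. Mirg made up 8.15% and 6.45% of the maternal sum in CDGC6, 7.92% and 8.81% in Dnd1-KD and 11.7% and 12.0% in control. Among the coding genes, Dio3 was at 0.331 and 0.339 times the FPKM of Dlk1 in CDGC6, at 1.62 and 2.14 times in Dnd1-KD and at 0.475 and 0.512 times in control. Dnd1-KD was thus the only one of these 3 groups in which Dio3 exceeded Dlk1.

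The tables also list transcripts assembled from the reads without a gene name. The choice of the 6 genes did not use them. Many lay inside or next to the maternal RNAs whose levels entered that choice, so their counts are not independent of it. Between Dlk1 and Dio3, 0 and 0 such transcripts were listed in CDGC1, 26 and 30 in CDGC6, 9 and 11 in Dnd1-KD and 22 and 12 in control. CDGC6 had the most and CDGC1 had none in either library. Over the whole genome the CDGC1 tables listed 3000 and 4793 unnamed transcripts, against 5590 and 5876 in CDGC6, 8738 and 4800 in Dnd1-KD and 9089 and 5508 in control. The transcripts of the cluster covered 31474 and 20288 bases in CDGC6, 6415 and 7431 in Dnd1-KD and 18498 and 6136 in control.

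They lay in stretches next to or inside the maternal RNAs. Between Meg3 and Rian there were 11 and 12 in CDGC6, 4 and 2 in Dnd1-KD and 12 and 8 in control. Within Rian there were 8 and 3 in CDGC6, 3 and 7 in Dnd1-KD and 3 and 2 in control, and within Mirg 5 and 10, 0 and 2, and 5 and 2 in the same groups. In the long stretch between Mirg and Dio3 the first Dnd1-KD library and the first control library each listed 1, at 411 and 412 kb from the start of Meg3, and CDGC6 listed 0. The median FPKM of the transcripts was 6.44 and 4.01 in CDGC6, 0.902 and 7.44 in Dnd1-KD and 1.51 and 2 in control. A few short ones within Rian were far higher, up to 2801 FPKM in the first CDGC6 library, where FPKM of so short a transcript is uncertain. Of the small RNA genes listed in the cluster, 54 to 59 a library, 0 and 0 were above 0 in CDGC1, 7 and 10 in CDGC6, 7 and 4 in Dnd1-KD and 9 and 4 in control.

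**Figure D2:**
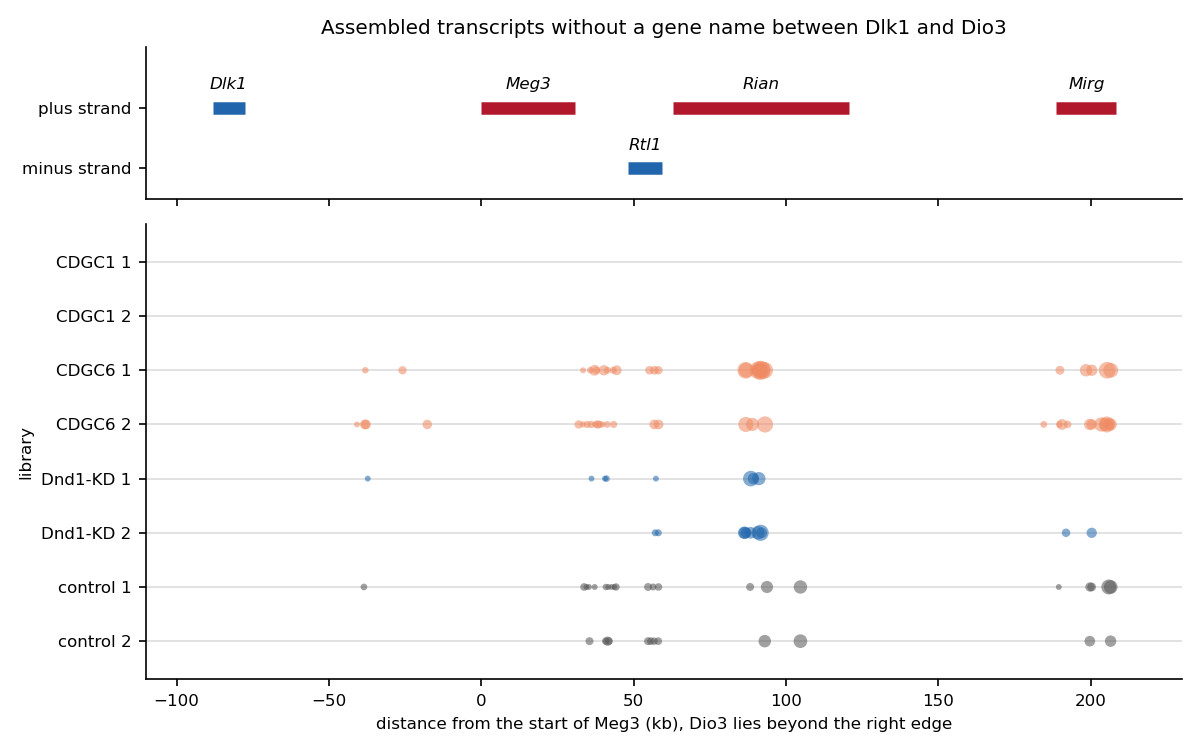
Upper panel, the cluster genes by strand against distance from the start of Meg3 in kb (maternal RNAs red, coding genes blue, Dio3 beyond the right edge). Lower panel, each assembled transcript without a gene name as a circle in each library, larger at higher FPKM; the CDGC1 libraries have 0 and the CDGC6 libraries 26 and 30. The 2 transcripts at 411 and 412 kb are outside the plot.

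Another 2 named genes of the cluster were named after their values were seen. The gene 6430411K18Rik overlaps Rtl1 on the opposite strand and holds Mir127 and Mir433. It was at 0 and 0.0510 FPKM in CDGC1, at 1.5 and 1.37 in CDGC6, at 0.651 and 0.929 in Dnd1-KD and at 0.961 and 0.745 in control. The CDGC1 libraries were below and the CDGC6 libraries above all others, and the Dnd1-KD and control libraries overlapped. It reached 1 FPKM in CDGC6 alone, and no test is given. Because strand was not kept, its fragments and those of Rtl1 cannot be told apart. Dio3os, read from the strand opposite to Dio3, was listed at 0 in both CDGC1 libraries and at 0.0270 to 0.0856 FPKM in the others.

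Around the cluster, 25 tested units started within 2 Mb of the Meg3 start and outside the stretch from Dlk1 to Dio3, 11 before it and 14 after it. In CDGC1 against control 3 of the 25 rose and 10 fell, where 23.5% of all tested units rose and 27.0% fell. Their log2 differences ran from -2.48 to 1.12, with a median of -0.12, short of the -4.58 to -5.96 of the maternal RNAs. On this scale Dlk1 (-1.39) and Dio3 (-0.86), both with low levels, lay within the range of these units. In CDGC6 against control 3 rose and 9 fell, with 8.48% and 10.2% over all tested units, and the range was -0.87 to 1.68. In CDGC1 against CDGC6 2 rose and 3 fell, with 23.0% and 24.1% over all units. In Dnd1-KD against control 5 rose and 3 fell, with 20.7% and 15.5% over all units.

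The nearest such unit before the cluster was Begain, whose midpoint lies at -490.8 kb from the Meg3 start, and it fell in CDGC1 (log2 difference -0.62, adjusted p = 0.0359) but not in CDGC6 (-0.26, adjusted p = 0.37). The nearest after it, Ppp2r5c at 974.1 kb, did not pass in CDGC1 (-0.12, adjusted p = 0.4) or in CDGC6 (0.32, adjusted p = 0.096). The lowest value in CDGC1 was that of the kinase gene Mok, at 1.26 and 1.38 FPKM in CDGC1, 5.72 and 9.83 in CDGC6 and 12.1 and 11.7 in control (log2 difference of CDGC1 against control -2.48 ± 0.22 SE, adjusted p = 0.000265). The chaperone gene Hsp90aa1 was at 1215 and 1207 FPKM in CDGC1 and at 2117 and 2107 in control (-0.80, adjusted p = 0.000161). Of a list of 21 neighbours, 19 units were tested. In CDGC1 against control 1 rose and 7 fell, in CDGC6 1 and 7, in CDGC1 against CDGC6 2 and 3 and in Dnd1-KD 3 and 2. Over all tested units the shares were 23.5% and 27.0%, 8.48% and 10.2%, 23.0% and 24.1%, and 20.7% and 15.5% in the same order. Neither count in Dnd1-KD was above its share of the 19. The count of called neighbours was 4 without the first control library and 3 without the second in CDGC1, where it was 8 with all libraries. In CDGC6 it was 0 with either control library left out, 4 with either CDGC6 library left out, 3 with either Dnd1-KD library left out, 5 with no filter, and 4 with only the compared groups or with the replicate block, against 8. In Dnd1-KD it was 0 with either control library left out, 3 and 2 without the first and second Dnd1-KD library and 1 with a filter of 5 FPKM, against 5.

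**Figure D3:**
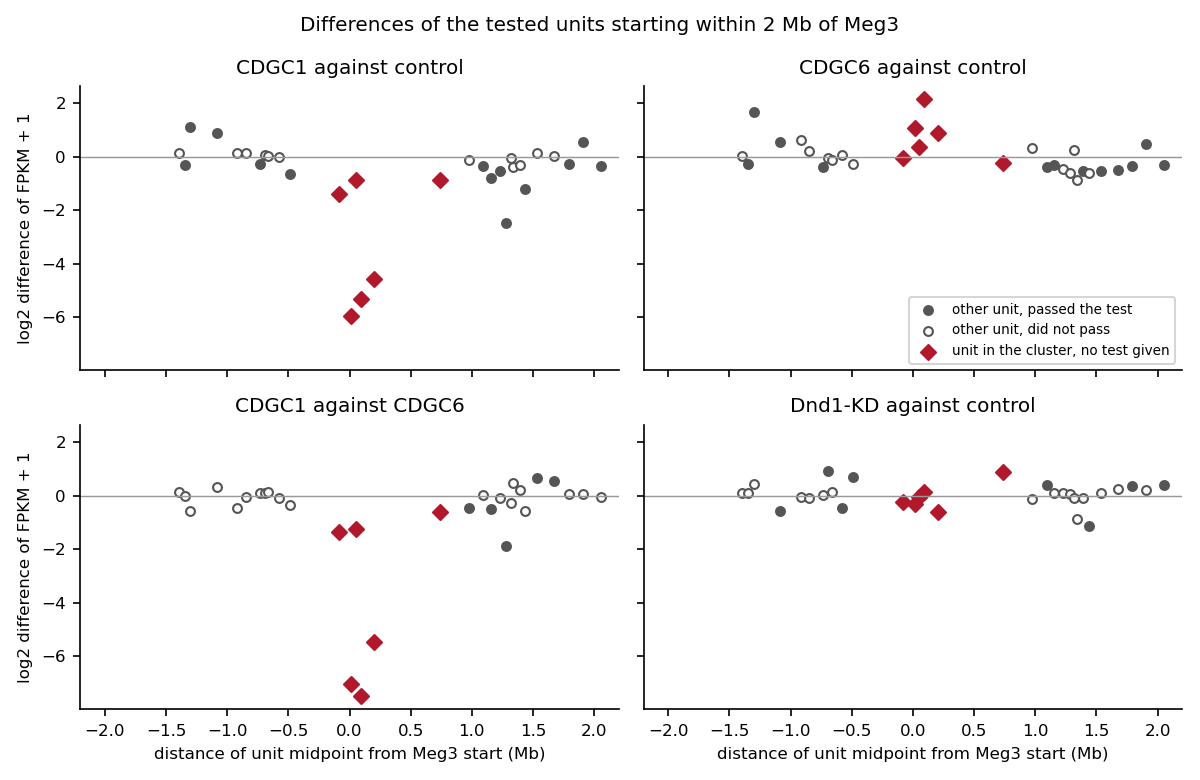
Log2 difference of FPKM + 1 (vertical axis) against the distance of a unit's midpoint from the start of Meg3 in Mb, for the 4 comparisons. Diamonds are 5 of the 6 cluster genes and 6430411K18Rik, with no test given; filled circles passed the limma test and open circles did not. In CDGC1 the maternal RNAs lie at -4.58 to -5.96 while units outside the cluster stay between -2.48 and 1.12. Dlk1 (-1.39), Dio3 (-0.86) and 6430411K18Rik (-0.85) lie within the range of the units outside.

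Imprinted genes at other places did not all go the way of the cluster genes of the same parental copy. Of 22 genes known as maternally expressed, 17 were tested, and in CDGC1 against control 4 rose and 8 fell. Over all tested units 23.5% rose and 27.0% fell, so the share that rose was at the background, and the median log2 difference was -0.43 against -0.03. Those that fell included Phlda2, a brake on placental growth, listed at 0 in CDGC1, against 56.5 and 57.0 FPKM in control (adjusted p = 1.41e-05). Grb10, a growth-restraining adaptor protein, was at 0.771 and 0.517 FPKM in CDGC1, 7.56 and 10.5 in CDGC6 and 45.1 and 45.0 in control. It fell in both lines, by limma, with log2 differences of -4.81 (adjusted p = 8.13e-06) and -2.22 (adjusted p = 0.000951). Cdkn1c, a cell cycle inhibitor, likewise fell in CDGC1 (-4.98, adjusted p = 1.07e-05) and in CDGC6 (-2.33, adjusted p = 0.00121). In CDGC6, where the maternal RNAs of the cluster were above control, 2 of the 17 rose and 7 fell (8.48% and 10.2% of all tested units), 3 called in all with either control library left out and 4 with either CDGC6 library left out.

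Of 26 genes known as paternally expressed, 21 units were tested, and the joined unit of H13 and Mcts2 is counted in both lists. In CDGC1 against control 15 rose and 2 fell (23.5% and 27.0% of all tested units), with a median log2 difference of 0.94 against -0.03, while Dlk1, Rtl1 and Dio3 were near 0 in that line. Magel2, from the imprinted region of mouse chromosome 7, was at 12.9 and 15.7 FPKM in CDGC1 and 0.741 and 0.640 in control (3.17 ± 0.14 SE, adjusted p = 1.96e-05). Sgce, a membrane protein gene, was at 28.0 and 25.1 FPKM in CDGC1 and 4.66 and 4.69 in control (2.28, adjusted p = 1.83e-05). The amino acid transporter gene Slc38a4 went the other way, at 0.0565 and 0.0228 FPKM in CDGC1 and 66.5 and 62.8 in control (-5.98, adjusted p = 4.34e-06). In CDGC6 11 rose and 5 fell (8.48% and 10.2% of all tested units), 5 called in all with either control library left out and 10 and 9 without the first and second CDGC6 library. In CDGC1 against CDGC6 15 of the 21 rose and 3 fell, and of the 17 maternally expressed 4 rose and 6 fell, with 23.0% and 24.1% over all tested units. In Dnd1-KD 4 paternally expressed units rose and 0 fell, where 20.7% of all tested units rose and 15.5% fell, so the share that rose was near the background. The count called was 7 with only the compared groups, and Igf2 was among those that rose (0.84, adjusted p = 0.00363). Of the maternally expressed, 2 rose and 4 fell, 1 called in all without the first control library and 3 without the second or without the second Dnd1-KD library.

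**Figure D4:**
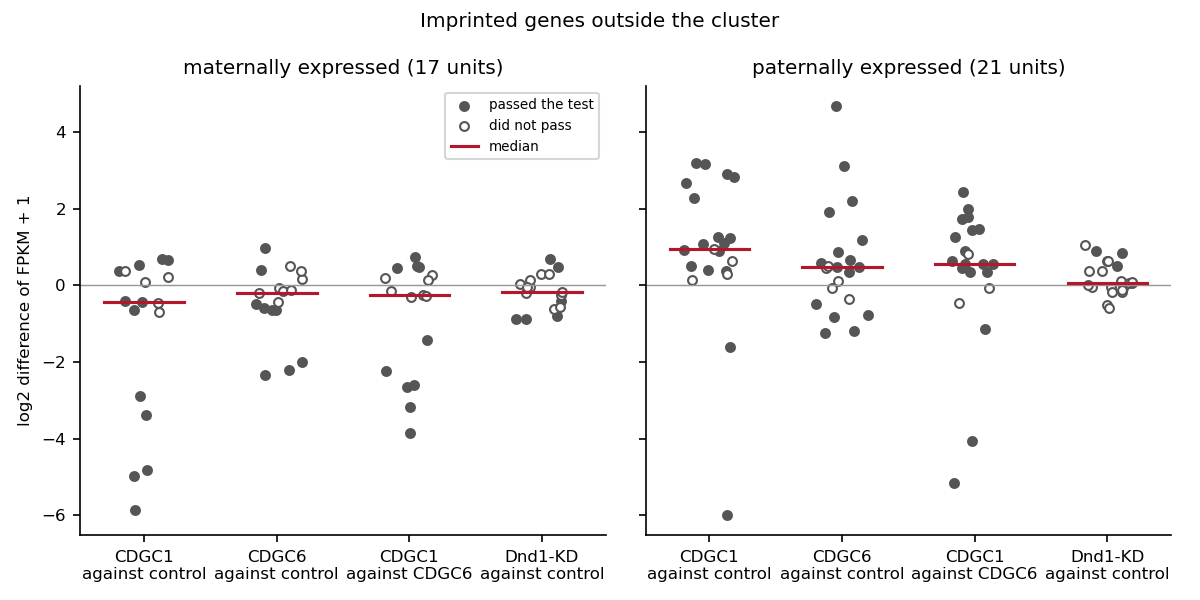
Log2 difference of FPKM + 1 (vertical axis) of imprinted genes outside the cluster in the 4 comparisons, 17 units known as maternally expressed on the left and 21 known as paternally expressed on the right, with the joined unit of H13 and Mcts2 in both. Filled circles passed the limma test, open circles did not, and the line is the median, -0.43 and 0.94 in CDGC1 against control.

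Genes known to set, keep or remove imprints were tested as a list of 25, all measured. In CDGC1 against control 2 rose and 14 fell (23.5% and 27.0% of all tested units), with a median log2 difference of -0.34 against -0.03. Dnmt3l, which guides new DNA methylation in germ cells, was at 0.883 and 1.10 FPKM in CDGC1, 135 and 176 in CDGC6, 161 and 158 in Dnd1-KD and 282 and 264 in control. Its log2 difference was -7.11 ± 0.13 SE in CDGC1 (adjusted p = 1.5e-06) and -0.82 in CDGC6 (adjusted p = 0.0117, and 0.0818 or 0.0621 without the first or second control library). Dppa3, which shields imprints from loss of methylation in the early embryo, was at 0.0572 and 0.0923 FPKM in CDGC1, 49.9 and 56.7 in CDGC6, 16.3 and 16.8 in Dnd1-KD and 21.5 and 21 in control. Like the maternal RNAs it was below control in CDGC1 (-4.37, adjusted p = 1.69e-06) and above it in CDGC6 (1.29, adjusted p = 0.000951).

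Zfp42, a zinc finger gene of pluripotent cells, was at 0.0220 and 0 FPKM in CDGC1, 223 and 304 in CDGC6, 223 and 178 in Dnd1-KD and 335 and 352 in control. Eed, a subunit of the Polycomb complex PRC2, fell in CDGC1, to 50.8 and 53.4 FPKM against 124 and 128 in control (-1.26, adjusted p = 3.16e-05). Dnmt3b, a DNA methyltransferase, rose in CDGC6, at 262 and 255 FPKM against 136 and 106 in control (1.09, adjusted p = 0.00985, and 0.0535 without the second control library). Zfp57, whose protein binds the letters searched above, was named after its values were seen and was at 13.8 and 26.7 FPKM in CDGC1, 65.3 and 90.9 in CDGC6, 84.7 and 68.8 in Dnd1-KD and 114 and 130 in control. It fell in CDGC1 (-2.60, adjusted p = 0.000919). In CDGC6 4 of the 25 rose and 4 fell (8.48% and 10.2% of all tested units), 3 called in all without the first control library, 2 without the second and 5 without the first CDGC6 library. In CDGC1 against CDGC6 2 rose and 14 fell (23.0% and 24.1% of all tested units). In Dnd1-KD 4 rose and 14 fell (20.7% and 15.5%), 5 called in all without the first control library, 9 without the second and 10 without the second Dnd1-KD library.

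Genes that act with the coding members were taken from lists of 26 NOTCH pathway and 13 thyroid hormone genes, of which 19 and 9 units were tested. In the NOTCH list 5 rose and 8 fell in CDGC1 against control, 1 and 2 in CDGC6, 7 and 7 in CDGC1 against CDGC6 and 6 and 6 in Dnd1-KD. Over all tested units the shares were 23.5% and 27.0%, 8.48% and 10.2%, 23.0% and 24.1%, and 20.7% and 15.5% in the same order. The counts that rose in CDGC1, and both counts in CDGC6, were near these shares of the 19. Rbpj, the DNA-binding partner of NOTCH, was at 22.6 and 18.5 FPKM in CDGC1 and 65.3 and 61.5 in control (-1.58, adjusted p = 7.29e-05). The NOTCH target gene Hes1 was at 27.0 and 31.5 FPKM in CDGC1 and 10.6 and 11.8 in control (1.31, adjusted p = 0.000262). In Dnd1-KD the ligand gene Dll1 rose, at 5.23 and 7.99 FPKM against 1.80 and 1.96 in control (1.38, adjusted p = 0.00474). The count of NOTCH calls in Dnd1-KD was 4 with either control library left out and 5 without the second Dnd1-KD library. That in CDGC6 was 0 with either control library left out, and that in CDGC1 against CDGC6 was 9 with only the compared groups.

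In the thyroid hormone list 5 rose and 1 fell in CDGC1 against control, 2 and 0 in CDGC6, 4 and 0 in CDGC1 against CDGC6 and 0 and 1 in Dnd1-KD, the group in which Dio3 was highest. The shares over all tested units in these comparisons are those given for the NOTCH list. Rxra, which encodes a receptor that pairs with thyroid hormone receptors, was at 8.78 and 11.6 FPKM in CDGC1, 4.17 and 3.29 in CDGC6 and 3.37 and 3.28 in control. It rose in CDGC1 against control (1.36, adjusted p = 0.000913) and against CDGC6 (1.24, adjusted p = 0.00156). The count of 2 in CDGC6 was 1 when any of its or of the control libraries was left out, with a pseudocount of 0.1, with no filter and with the replicate block. The count of 1 in Dnd1-KD was 0 without either of its libraries in turn, without the second control library and with a pseudocount of 5. It was 2 without either CDGC6 library in turn, with a pseudocount of 0.1 and with only the compared groups. The other deiodinase genes Dio1 and Dio2 did not pass the filter.

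Across the 8 libraries, the other cluster genes were set against Meg3 on the log2 scale of FPKM + 1, with Pearson correlations of 0.993 for Mirg, 0.988 for Rian, 0.978 for Dlk1 and 0.627 for Dio3. Over 8 libraries in 4 groups of 2 these describe the group means and little else. Of 3343 units of a single symbol with a range of group means of at least 1 and no library at 0, those most like Meg3 included Zcwpw1 (0.998), Bin2 (0.996), Lsm14b (0.996) and Slc29a4 (0.994). Zcwpw1 was at 0.872 and 1.44 FPKM in CDGC1, 9.53 and 10.6 in CDGC6, 7.01 and 7.22 in Dnd1-KD and 7.59 and 7.04 in control, a narrower range than that of Meg3.

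Cell markers were set beside these values. Of the 10 pluripotent cell markers, 2 rose and 6 fell in CDGC1 against control, 1 rose and 0 fell in CDGC6 and 0 rose and 8 fell in Dnd1-KD. Over all tested units 23.5% rose and 27.0% fell in CDGC1, 8.48% and 10.2% in CDGC6 and 20.7% and 15.5% in Dnd1-KD. The counts that rose in CDGC1 and in CDGC6 were near these shares of the 10. Counts of markers, here and below, were not repeated with a library left out. The 15 fibroblast or feeder cell markers summed to 65.5 and 66.0 FPKM in CDGC1, 57.1 and 64.4 in CDGC6, 28.5 and 26.2 in Dnd1-KD and 26.7 and 26.9 in control. Of the 11 tested, 9 rose and 1 fell in CDGC1 against control, 9 rose and 0 fell in CDGC6 and 1 rose and 0 fell in Dnd1-KD. The marker that fell was Mmp2, a matrix protease gene, at 0.619 and 0.599 FPKM in CDGC1, 7.49 and 7.07 in CDGC6, 5.02 and 4.98 in Dnd1-KD and 4.73 and 5.04 in control (log2 difference of CDGC1 against control -1.87, adjusted p = 2.05e-05). Lum, Dcn and Fap were below 1 FPKM in every library. The summed levels of the fibroblast or feeder cell markers were about alike in CDGC1 and CDGC6, but single markers differed. In CDGC1 against CDGC6, 2 of the 11 tested rose and 2 fell, where 23.0% of all tested units rose and 24.1% fell. The endoderm marker Foxa2 was at 8.15 and 38.6 FPKM in CDGC1, 5.74 and 2.71 in CDGC6, 0.482 and 0.539 in Dnd1-KD and 0.229 and 0.214 in control, and it rose in CDGC1 (3.96, adjusted p = 0.00336). By limma, Gata6 (0.57, adjusted p = 0.11) and Dab2 (0.67, adjusted p = 0.0768), the other endoderm markers tested, did not pass in CDGC1. In Dnd1-KD, where Dio3 was highest, Gata6 (1.01, adjusted p = 0.0269) and Dab2 (1.14, adjusted p = 0.0192) rose, 2 of the 3 tested. Foxa2 did not pass in Dnd1-KD (0.31, adjusted p = 0.749). Sox17, Sox7, Afp and Ttr were below 1 FPKM throughout. Of 8 leukocyte markers 7 were below 1 FPKM in every library, and Cd68 shared an entry with Eif4a1 and other genes. Of 10 testis somatic cell markers, Amh, Sox9, Cyp17a1, Hsd3b1 and Nr5a1 were below 1 FPKM in every library, and 4 units were tested. Inhba rose in CDGC1 (1.38, adjusted p = 6.55e-05), in CDGC6 (0.93, adjusted p = 0.00205) and in Dnd1-KD (0.36, adjusted p = 0.0208). Cyp11a1 rose in CDGC1 (0.90, adjusted p = 0.00555). Gata4 rose in Dnd1-KD (0.91, adjusted p = 0.0024) and fell in CDGC1 (-0.49, adjusted p = 0.00823), and the joined unit of Insl3 and Jak3 fell in CDGC1 (-0.99, adjusted p = 0.0104). The part of other cells in the fibroblast, testis and endoderm values, and in those of the cluster, was not tested.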

How the data were processed

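RNA-seq of 8 libraries was analysed, 2 in each of 4 groups taken from the labels. The authors deposited FPKM values with an interval for each gene entry, in 1 Cufflinks table per library, per the file headers. The submitters' processing notes list mm10 and the tools Bowtie, TopHat2, Cufflinks and Cuffdiff, and versions and roles are not given in the sources used here. Read counts are not in the files, so fragments were derived from an FPKM and its interval, and depth sets the precision of low genes. Symbols joined in any library were treated as 1 unit in all libraries and their FPKM summed, giving 21971 units. Small RNA genes, entries without a gene name and 24 spreadsheet dates in place of names were kept out of the tests. In each library, 76.8% to 85.6% of all FPKM fell on entries without a name.

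Tests covered the 11875 units that reached 1 FPKM in 2 or more libraries. They were run on log2(FPKM + 1) with the limma package (version 3.58.1, R 4.3.3; linear model with a mean for each group and all 8 libraries in the fit, trended eBayes, two-sided, Benjamini-Hochberg adjustment, threshold 0.05). The 4 comparisons were CDGC1, CDGC6 and Dnd1-KD against control, and CDGC1 against CDGC6. The first 3 share the control libraries. The fit was tested on simulated data. The cluster genes entered the fit, but no p-value is given for them.

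The cluster genes and all lists were chosen with earlier results of these data known. Named were the 6 cluster genes in every library, other rows of the cluster as counts and ranges, Dnd1, up to 4 tested genes of each list and comparison with the smallest p, and the 5 units most like Meg3 by Pearson correlation. Of the genes so named, 2 are not reported here. Genes outside this rule are marked in the text, except the nearest neighbours, the cell markers and genes that share an entry. Positions come from GENCODE vM21 and sequences from RefSeq tables on GRCm38.p6. Python 3.11.15 with pandas 2.3.3, numpy 2.4.6 and matplotlib 3.10.9 was used. Alternatives were pseudocounts of 0.1 and 5, no filter or a filter of 5 FPKM, median-ratio scaling, quantile normalization, a fit on the compared groups alone, the replicate number as a block, the highest entry per unit, and each library left out in turn.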

Additional observations from a re-analysis of the deposited data

Results flagged for a closer look

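The derived lines differed from control in opposite directions in 7 genes. These came from the cluster genes, the genes named from the lists, the neighbours and the cell markers. The rule was not the same for the cluster genes and the others, and the share of all tested units meeting either rule was not counted. For the cluster genes the rule means that every CDGC1 library lay below and every CDGC6 library above both control libraries. For the others it means that both differences from control, and that between the lines, passed the limma test. Other genes in the tables have libraries in such an order without passing all 3 tests, and the genes most like Meg3 were chosen for this order. For the 4 cluster genes the difference between the lines was not tested, since their levels chose them. Of these, Rtl1 was below 1 FPKM in every library. The log2 difference of CDGC1 against CDGC6 was -7.06 for Meg3, -7.50 for Rian, -5.46 for Mirg and -0.61 for Rtl1, with CDGC1 below and CDGC6 above control. For Dppa3 it was -5.66 in the same sense, and by limma with Benjamini-Hochberg adjustment the lines differed (adjusted p = 1.27e-06). Igf2, a growth factor gene of the imprinted region on mouse chromosome 7, went the other way, at 17.4 and 17.1 FPKM in CDGC1, 4.29 and 4.71 in CDGC6 and 12.9 and 10.9 in control, a difference of 1.73 between the lines (adjusted p = 0.000104). For Mmp2, named among the fibroblast markers, the difference of CDGC1 against CDGC6 was -2.36 (adjusted p = 1.51e-05), with CDGC1 below and CDGC6 above control (0.49, adjusted p = 0.0138).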

How the results depend on the processing

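The number of units that passed the test was 5995 in CDGC1, 2220 in CDGC6 and 4301 in Dnd1-KD against control and 5598 in CDGC1 against CDGC6. All 4 counts stayed within 1.5 times under every alternative that kept all libraries. With 1 library left out, the count ran from 421 to 2898 in CDGC6 and from 1364 to 4924 in Dnd1-KD, lowest without the first control library (421 and 1364) or the second (492 and 1623). Counts were 1446 and 1326 without the first and second CDGC6 library, and 1931 without the second Dnd1-KD library. With the replicate number as a block they were 5774, 1663, 3922 and 5357 in the order above. Deviations of same-numbered libraries correlated at -0.00704, 0.0221, 0.122 and 0.00296, and with 2 numbers the labels give no pairing.

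For the cluster genes, 1 of 208 alternative differences changed sign, that of Dlk1 in CDGC6, which was -0.03 and became 0.03 without the first CDGC6 library. The size of the CDGC1 difference depends on the pseudocount, at -7.47 for Meg3 with 0.1 and -4.19 with 5, because CDGC1 levels lie near or below it. For genes of the lists, only those with the smallest p, up to 4 of each list and comparison, were followed in this way. Of their 1619 alternative values, 77 lost a call, 67 of them with 1 library left out, and 0 changed direction. Some of these genes had not passed with the main settings and could not lose a call. Dio3 and Dlk1 are limited by depth, with few implied fragments behind the CDGC1 values.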

Other observations

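In both derived lines Hprt, chosen after its values were seen, a purine salvage gene that E14tg2a is known to lack in working form, was at 124 and 121 FPKM in CDGC1, 123 and 133 in CDGC6, 0.533 and 0.642 in Dnd1-KD and 0.359 and 0.455 in control. Among the maternally expressed genes outside the cluster, Igf2r, a receptor that clears IGF2, was at 0.761 and 0.747 FPKM in CDGC1, 16.5 and 13.2 in CDGC6, 27.3 and 30.2 in Dnd1-KD and 16.9 and 17.6 in control. It fell in CDGC1 by limma (log2 difference -3.38, adjusted p = 1.07e-05) and rose in Dnd1-KD (0.70, adjusted p = 0.0078, and 0.0522 or 0.0599 without the second Dnd1-KD or the first control library).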
